A study of Mus musculus with 1 sample.

Results

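The transcripts of 8 secreted signals were examined in lung alveolar macrophages (AMs), which were Cxcl1, Cxcl2, Cxcl3, Tnf, Ccl3, Ccl4, Ccl6 and Ccl9, 8 of the 11918 genes listed for the cells. The genes were taken by symbol, and all 8 are listed. The cells came from 1 library of a single WT adult mouse, labelled 8 to 12 weeks old, that carried floxed Hdac3 alleles without Cre, on an FVB/NJ background crossed to C57BL/6 for over 10 generations. AMs were sorted from lung as CD45+CD11c+SiglecF+ cells, 5000 were loaded, and transcripts were counted from their 3′ ends as UMIs (unique molecular identifiers, each standing for 1 captured transcript) with the 10x Genomics v2 chemistry. The cKO library of the study was not analysed here, and the WT cells received no stimulus according to the labels. The paper describes that adult lungs were minced and digested with warm collagenase before sorting. What this handling adds to the levels of the 8 genes, or of genes found with them, was not tested. With 1 library of 1 mouse there is no replicate, so no test between conditions was made, and every interval below covers counting error only.

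Chemokines are small secreted proteins that recruit leukocytes through receptors on the cells they attract. Cxcl1, Cxcl2 and Cxcl3 act on Cxcr2 and draw neutrophils, Ccl3 and Ccl4 draw monocytes and lymphocytes, and Tnf is a cytokine that activates endothelium and other leukocytes. These 6 are known as genes that macrophages switch on within a short time after stimulation through NF-κB, with short-lived transcripts, and are called inducible here. Ccl6 and Ccl9 are CC chemokines of rodents that act on Ccr1 and are made by resting macrophages, and are called constitutive here. The split was taken from this general knowledge and not from a stimulus in these data.

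The 2055 cells held 7222978 UMIs, between 1143 and 8603 in a cell with a median of 3278. At the median depth, 3 UMIs correspond to a level of 9.15 per 10000 UMIs, so low levels could not be read in a single cell. The sorted identity was visible in AM genes. Chil3 was found in 2055 cells and Ear2 in 2030, and 2054 cells held at least 3 of the 16 listed AM markers. No cell held 3 or more markers of neutrophils, monocytes, interstitial macrophages or dendritic cells, lists with 3 to 5 genes in the file, and 2 cells held 3 or more markers of B and plasma cells. For neutrophils, monocytes and dendritic cells all 3 genes had to be found, so this count cannot show that such cells are absent. S100a8, of neutrophils, was found in 10.1% of cells with up to 23 UMIs. In the B and plasma cell list, Jchain had 1006 UMIs, 940 of them in a single cell. Ccl5, a chemokine gene listed for T and NK cells, reached 31 UMIs in a cell. In the lists of immune cells other than AMs, the next highest counts after S100a8 were 19 for Cx3cr1, 9 for Ccr7 and 8 for Plac8. The genes listed for basophils and mast cells and for eosinophils are not among the genes in the file. Of 7 epithelial genes in the file, 24 cells held 3 or more. Epcam was found in 58.1% of cells with up to 7 UMIs, so it gave no gauge of free RNA in the droplets, and surfactant and club cell genes were taken for this after their values were seen. Sftpc, a surfactant protein gene, had a UMI in 6.86% of cells (Wilson interval 5.85 to 8.04) and at most 4 UMIs in a cell. Scgb1a1, of club cells, had one in 5.50% of cells and Sftpa1 in 1.41%. The free RNA of a more abundant gene such as Cxcl2 may be higher and was not measured.

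The genes lie in 3 places in the genome. On GRCm38, the build the authors named as mm10, Cxcl3 (chr5:90786103-90789600), Cxcl1 (chr5:90891241-90893115) and Cxcl2 (chr5:90903871-90905938) are neighbors on the plus strand of chromosome 5. Ccl9 (chr11:83572919-83578636), Ccl6 (chr11:83587882-83593087) and Ccl3 (chr11:83647844-83649355) are on the minus strand of chromosome 11, and Ccl4 (chr11:83662584-83664683) follows on the plus strand. Tnf is on the minus strand of chromosome 17 (chr17:35199381-35202007). These coordinates span whole genes, with exons, introns and UTRs, as annotated in GENCODE M21. Although the members of each cluster are related, their 3′ ends, which the assay reads, can be told apart. No stretch of 98 bases (the read length) from the final 300 bases of their coding transcripts was shared with any other gene (0 for each of the 8 genes).

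The promoters of the 3 Cxcl genes share a sequence. RefSeq promoters (GRCm38.p6) were at hand for 7 of the 8 genes, Ccl4 apart, and were searched on both strands from 250 bases before to 50 after the start for the NF-κB consensus. Cxcl1, Cxcl2 and Cxcl3 each hold the letters GGGAATTTCC, which begin at base -71, -97 and -73 from the start, and each match overlaps a second one on the other strand. Ccl9 holds the different letters GGGGCTTTCC on the opposite strand at bases -35 to -26. No match lay in the windows of Tnf, Ccl3 and Ccl6. Of 32851 promoters of the same length, 8.46% hold a match. The letters TATAAA, present in 13.6% of promoters, were found in Cxcl3 from base -30 and in Tnf from base -29. In Ccl9 they were found further from the start, at bases -224 to -219, -94 to -89 and -92 to -87. A match to the AP-1 consensus, present in 7.81% of promoters, was found in Ccl9 alone, with the letters TGAATCA at bases -53 to -47. The 150 bases before the start are shown for the 3 Cxcl genes, which hold the same letters, and for Ccl9 and Ccl6, the constitutive pair, with the NF-κB match in capitals. They are read 5′ to 3′ on the strand of the gene, which is plus for the Cxcl genes and minus for Ccl9 and Ccl6.
Cxcl1 (chr5:90891095-90891244): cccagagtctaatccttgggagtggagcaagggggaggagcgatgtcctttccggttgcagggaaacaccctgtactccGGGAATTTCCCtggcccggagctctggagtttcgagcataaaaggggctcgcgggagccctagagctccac
Cxcl2 (chr5:90903749-90903898): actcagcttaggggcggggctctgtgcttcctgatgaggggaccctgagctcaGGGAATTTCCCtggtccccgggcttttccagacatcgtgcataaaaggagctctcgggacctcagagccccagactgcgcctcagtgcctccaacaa
Cxcl3 (chr5:90785951-90786100): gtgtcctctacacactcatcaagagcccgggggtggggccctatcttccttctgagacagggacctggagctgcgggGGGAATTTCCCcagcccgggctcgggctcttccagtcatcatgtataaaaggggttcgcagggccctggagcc
Ccl9 (chr11:83578637-83578786): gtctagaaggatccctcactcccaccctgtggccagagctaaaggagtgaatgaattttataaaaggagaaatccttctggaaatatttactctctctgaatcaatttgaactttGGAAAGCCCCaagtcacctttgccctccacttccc
Ccl6 (chr11:83593088-83593237): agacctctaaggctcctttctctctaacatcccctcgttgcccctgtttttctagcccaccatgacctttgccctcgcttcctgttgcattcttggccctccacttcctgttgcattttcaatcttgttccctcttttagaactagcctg

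The transcripts also differ at their 3′ ends. The pentamer ATTTA (written as DNA), the core of AU-rich elements that are known to shorten the life of cytokine transcripts, was counted in the longest coding transcript of each gene. Its density in the 3′ UTR was 15.0 per 1000 bases in Cxcl2 (11 copies in 734 bases), 12.2 in Ccl3, 11.8 in Cxcl1, 10.5 in Tnf, 7.75 in Cxcl3 and 6.62 in Ccl4. The 2 constitutive genes were below all 6, at 4.24 in Ccl6 and 2.03 in Ccl9. The median over 21027 genes was 1.14, and 7.99% of genes had over 5 per 1000 bases, as the 6 inducible genes do. A pentamer count describes letters and does not measure the life of a transcript.

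The 8 genes fell far apart in how many AMs carried them. Ccl6 was found in all but 1 of the 2055 cells. Cxcl2 followed in 1367 cells (66.5%, Wilson interval 64.5 to 68.5), Ccl3 in 819 (39.9%, 37.8 to 42.0), Ccl9 in 670 (32.6%, 30.6 to 34.7) and Tnf in 407 (19.8%, 18.1 to 21.6). Ccl4 was found in 316 cells (15.4%, 13.9 to 17.0), Cxcl1 in 200 (9.73%, 8.52 to 11.1) and Cxcl3 in 119 (5.79%, 4.86 to 6.89). The intervals of neighbors in this order do not overlap. The share of Cxcl3, however, was not above that of Sftpc, so a single UMI of Cxcl3 cannot be told apart from free RNA, and the cells with many UMIs carry the information on this gene.

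**Figure D1:**
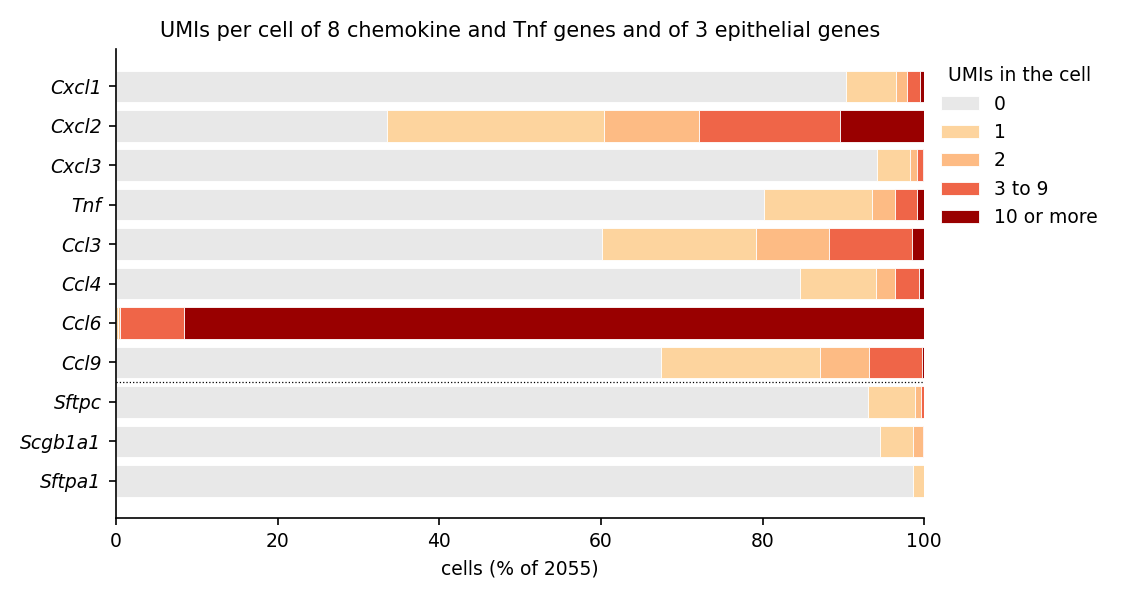
Share of the 2055 cells (horizontal axis, %) that held 0, 1, 2, 3 to 9 or 10 or more UMIs of each gene, with the 8 genes above the dotted line and 3 epithelial genes, a gauge of free RNA, below it. Ccl6 fills nearly the whole bar with 10 or more UMIs, whereas the epithelial genes have no cell in that class.

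Depth moved these shares, and equal depth kept the order. When each cell was thinned to 2000 UMIs, which left 1756 cells, Cxcl2 was found in 54.4% of cells, Ccl3 in 30.9%, Ccl9 in 22.7%, Tnf in 13.4%, Ccl4 in 11.5%, Cxcl1 in 7.29% and Cxcl3 in 3.87%. The intervals of Tnf (11.9 to 15.1) and Ccl4 (10.1 to 13.1) then overlapped. Cells were also put in 10 classes of depth. Between the shallowest and the deepest class the share with Cxcl2 went from 48.5% to 86.4%, while its mean level went from 12.5 to 15.0 UMIs per 10000.

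Ccl6 was one of the most abundant transcripts of these AMs among the genes in the file. It took 69196 UMIs, the 8th most of the 11918 genes listed, from which the authors had removed ribosomal protein genes. Its level had a mean of 94.3 ± 46.2 UMIs per 10000 (SD over 2055 cells) and a median of 86.5, with 33.7 at the 5th and 174.8 at the 95th percentile of cells and 440.0 in the highest cell. The coefficient of variation was 49.1%, against at least 199.0% in each of the other 7 genes. This measure also rises as counts become few, and was 460.9% for Sftpc, so by itself it cannot rank these genes by evenness. Ccl6 was carried across the population, although the 5% of cells with the most Ccl6 still held 14.1% of its UMIs.

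Ccl9, its neighbor on chromosome 11, was present at a far lower level. Its mean was 1.74 ± 3.83 UMIs per 10000, its median cell had none, and its highest cell held 16 UMIs. Of the 670 cells with Ccl9, 60.3% held a single UMI. If the 1290 UMIs of Ccl9 had fallen on all cells at a single rate per UMI, 44.9% of cells would hold one, against the 32.6% found. The variance of its UMIs over cells was 2.83 times the mean, the lowest of the 8 genes. By comparison, this ratio was 1.39 for Sftpc.

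Cxcl2 dominated the inducible genes. The 6 genes together took 13814 UMIs, and Cxcl2 held 65.5% of them. Its level over cells had a mean of 11.9 ± 28.5 UMIs per 10000, a median of 3.36 and a highest value of 311.1, and the highest cell held 202 UMIs. At 32.2, the ratio of variance to mean of its UMIs was the 4th highest of the genes in the file. Its UMIs were found in many cells and were uneven among them. A single UMI was held by 552 cells, 39.7% of cells held 2 or more, 214 cells (10.4%) held 10 or more, and the top 5% of cells held 51.7% of its UMIs.

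The other 2 neutrophil chemokines were found in few cells. Cxcl1 had 596 UMIs in 200 cells, with a mean of 0.735 ± 4.47 UMIs per 10000 and at most 63 UMIs in a cell. Cxcl3 had 269 UMIs in 119 cells, with a mean of 0.352 ± 2.26 and at most 27 UMIs. A small number of cells held most of both. The 21 cells that make up the top 1% held 52.9% of the Cxcl1 UMIs and 57.6% of the Cxcl3 UMIs. A gene found in few cells has a high share by its sparseness. It was 29.1% for Sftpc, 32.4% for Scgb1a1 and 72.4% for Sftpa1, which had 29 UMIs. At a single rate per UMI, 24.6% of cells would hold Cxcl1 and 12.1% Cxcl3, against the 9.73% and 5.79% found.

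Tnf, Ccl3 and Ccl4 lay between these patterns. Tnf had a mean level of 1.28 ± 5.12 UMIs per 10000 and at most 27 UMIs in a cell, and the top 5% of cells held 64.3% of its UMIs. Ccl3 had a mean of 2.81 ± 5.60 and at most 23 UMIs, with 41.7% of UMIs in the top 5% of cells, close to the 40.4% of Ccl9. Ccl4 had a mean of 1.07 ± 4.07 and at most 23 UMIs, with 70.9% in the top 5%. By the ratio of variance to mean, the order was Cxcl2 (32.2), Cxcl1 (15.8), Ccl6 (15.5), Cxcl3 (7.77), Tnf (7.00), Ccl4 (6.27), Ccl3 (4.70) and Ccl9 (2.83). This ratio rises with the level of a gene, which is why the abundant Ccl6 ranks high in it and lowest in the coefficient of variation.

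**Figure D2:**
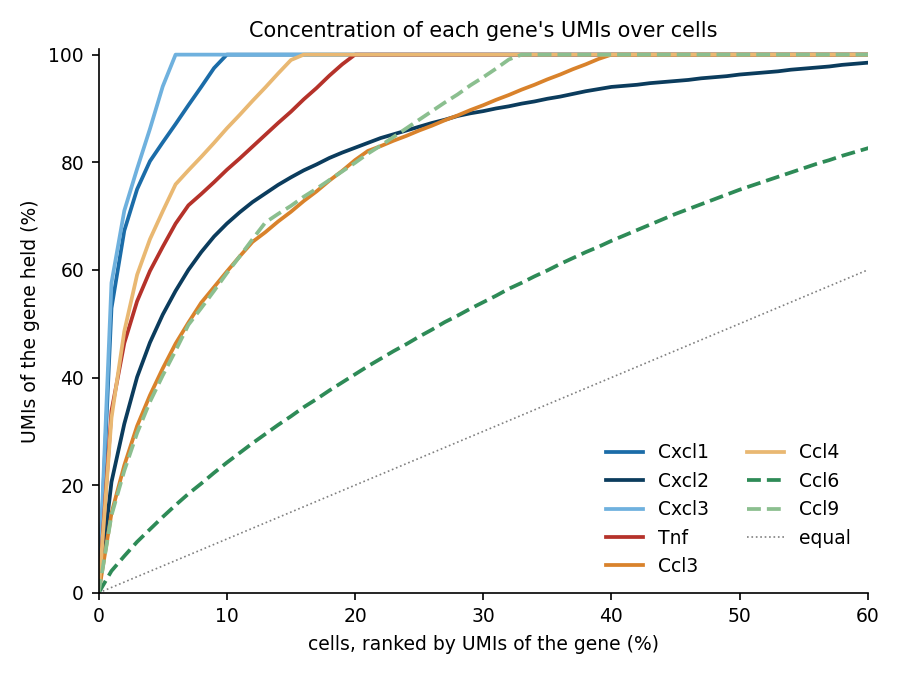
Share of the UMIs of each gene (vertical axis, %) held by the cells with the most of it (horizontal axis, %, shown up to 60). Solid lines are inducible and dashed lines constitutive genes, and the dotted line is an equal spread. Cxcl3 and Cxcl1 rise most steeply, with 94.1% and 83.7% of UMIs in the top 5% of cells, Ccl6 runs closest to the dotted line, and Ccl9 runs with Ccl3.

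In most AMs 1 or 2 inducible genes were found at this depth. A single UMI counted as found, and free RNA was not removed from these counts. None of the 6 was found in 367 cells (17.9%), 1 in 707 (34.4%), 2 in 573 (27.9%), 3 in 283 (13.8%), 4 in 100, 5 in 24 and all 6 in 1 cell. Cxcl2 alone was the most frequent combination (475 cells), followed by Cxcl2 with Ccl3 (281 cells). In 92 cells Cxcl2, Tnf and Ccl3 were found together, and in 77 cells Cxcl2, Ccl3 and Ccl4. Deeper cells showed more genes, up to 4. The median depth was 2600 UMIs in cells with none and 4707 in cells with 4. It was 4372 in the 24 cells with 5 genes and 3606 in the 1 cell with 6. Over all 6 genes, the 103 cells of the top 5% held 44.8% of the inducible UMIs.

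The inducible genes were found together more often than their separate shares give. The joint detection ratio is the number of cells with both genes divided by the number that the product of the shares gives, and 1 means no excess. Among the 15 pairs of inducible genes it was above 1 in 15 pairs, with a median of 1.29 and a range of 1.08 to 2.02. The counting interval held 1 for Ccl4 with Cxcl1 and Cxcl2, and for Cxcl3 with Cxcl2, Tnf, Ccl3 and Ccl4. At 2000 UMIs per cell the median was 1.36, and it was 1.17 when the product was taken within the 10 classes of depth, again with 15 of 15 pairs above 1. The 12 pairs of an inducible with a constitutive gene had a median of 1.03. Pairs with Ccl6 are bound to lie near 1, since nearly every cell holds it. The 6 pairs with Ccl9, which is not so bound, were all above 1 at full depth, with a median of 1.10 and a range of 1.07 (with Ccl4) to 1.29 (with Cxcl1, 1.04 to 1.59). At equal depth their median was 1.09, with 4 of 6 pairs above 1 and a range of 0.87 to 1.29.

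By this ratio the closest pair was Cxcl1 with Tnf. Both were found in 80 cells, against 39.6 from the product of the shares, a ratio of 2.02 (counting interval 1.63 to 2.50). Of the cells with Cxcl1, 40.0% also held Tnf and 88.5% held Cxcl2. Cxcl1 and Cxcl3 were found together in 21 cells with a ratio of 1.81 (1.19 to 2.76), and Ccl3 and Ccl4 in 184 cells with a ratio of 1.46 (1.27 to 1.68). Ccl4 with Cxcl2 had the lowest ratio of the 15 at full depth, 1.08 (0.954 to 1.22), with an interval that holds 1. The ratio of Cxcl2 with any gene is limited by its wide detection and cannot exceed the inverse of its share.

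**Figure D3:**
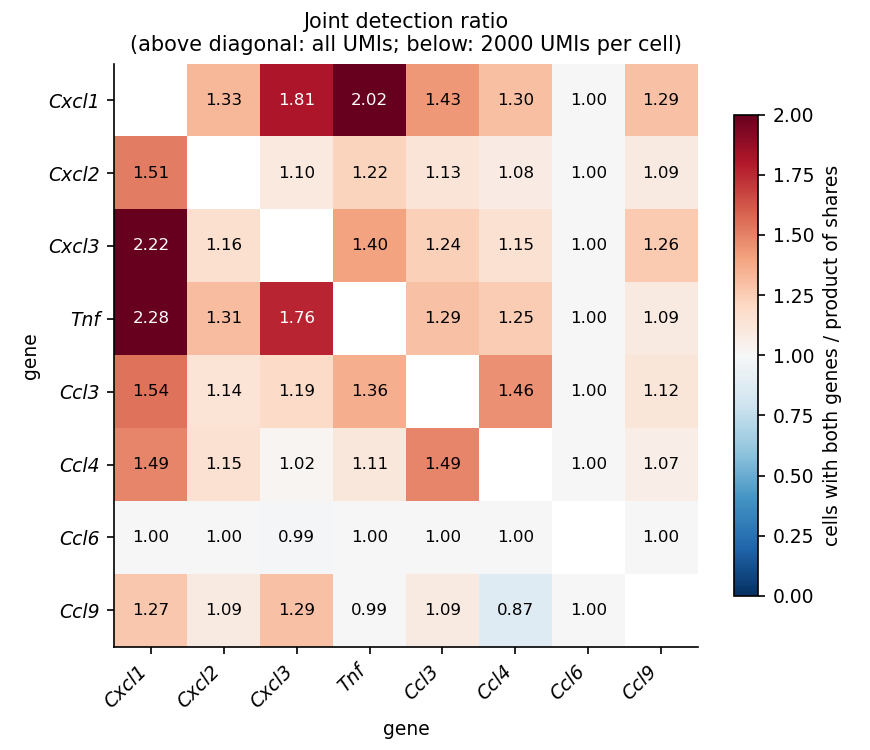
Joint detection ratio of each pair of genes, above the diagonal with all UMIs and below it at 2000 UMIs per cell. Red is more joint cells than the product of the shares and white is none more. The deepest red is in Cxcl1 with Tnf (2.02 and 2.28) and Cxcl1 with Cxcl3 (1.81 and 2.22), and the row of Ccl6 is white by its near-complete detection.

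The cells with the most UMIs showed the same grouping more sharply. All 11 cells with 10 or more UMIs of Cxcl1 also held 10 or more of Cxcl2, as did all 18 such cells of Tnf and all 4 of Cxcl3. The product of the shares gives 1.15, 1.87 and 0.417 cells. Of the 29 cells with 10 or more UMIs of Ccl3, 14 were such cells of Cxcl2, and of the 14 of Ccl4, 6 were. No cell reached 10 UMIs of both Tnf and Ccl4 or of both Cxcl1 and Ccl4, where the product gives 0.123 and 0.0749 cells, too few for a 0 to be informative. Ccl3 and Ccl4 reached 10 together in 3 cells.

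Cells sorted by Cxcl2 UMIs at equal depth showed which genes went with it. Cxcl1 was found in 2.88% of the 800 cells without Cxcl2 and in 42.1% (Wilson interval 33.4 to 51.3) of the 114 cells with 10 or more. Tnf went from 8.38% to 54.4% (45.2 to 63.2), and most of the step lay in the last class, since it was at 22.7% among cells with 4 to 9 UMIs of Cxcl2. Ccl3 went from 25.6% to 57.0% (47.8 to 65.7). Cxcl3 went from 3.12% to 13.2% (8.14 to 20.6). Ccl4 went from 9.38% (7.54 to 11.6) to 18.4% (12.4 to 26.5). For the constitutive genes the steps were smaller, although in percentage points that of Ccl9 was close to those of Ccl4 and Cxcl3. Ccl9 went from 20.2% (17.6 to 23.2) to 28.1% (20.6 to 36.9), intervals that overlap. With all UMIs, its level was 1.59 UMIs per 10000 (1.42 to 1.77) in cells without Cxcl2 and 2.35 (2.04 to 2.68) in cells with 10 or more, intervals that do not. The level of Ccl6 at equal depth was 96.0 ± 47.2 UMIs per 10000 without Cxcl2 and 94.1 ± 40.3 in the highest class.

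**Figure D4:**
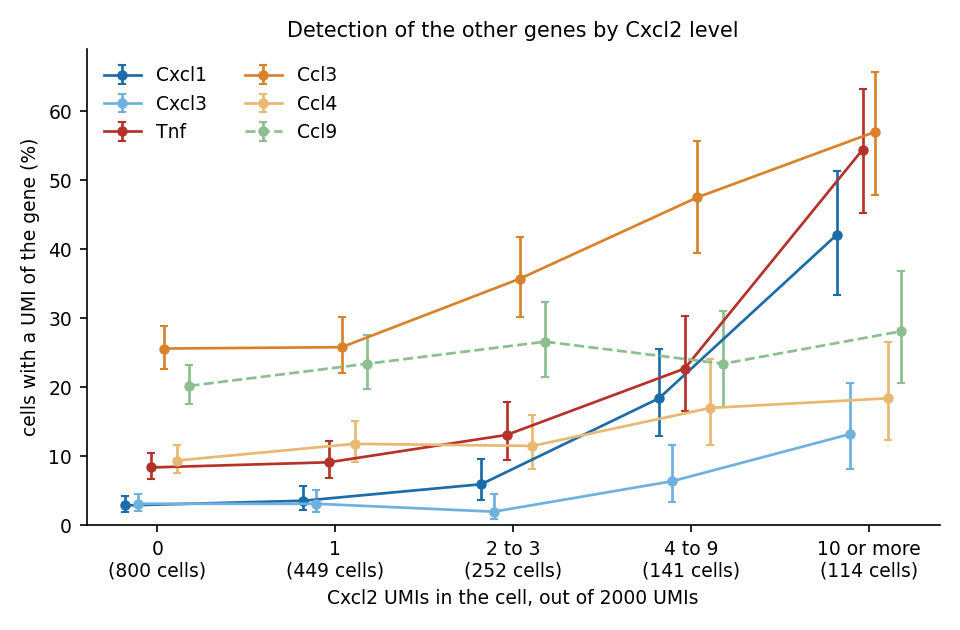
Share of cells with a UMI of each gene (vertical axis, %, with 95% Wilson intervals) in classes of Cxcl2 UMIs (horizontal axis, with the number of cells), all cells thinned to 2000 UMIs. Tnf and Cxcl1 climb from 8.38% and 2.88% to 54.4% and 42.1%, while the dashed line of Ccl9 stays between 20.2% and 28.1%.

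Correlations of the log values over the 2055 cells, given as a description of cells that share 1 library, drew similar groups among the inducible genes. Pearson's r was 0.40 for Cxcl2 with Tnf, 0.39 for Cxcl1 with Cxcl2, 0.30 for Cxcl1 with Tnf and 0.25 for Cxcl2 with Ccl3. Ccl4 was tied most to Ccl3 (0.22) and less to Cxcl2 (0.08) and Cxcl1 (0.02). Ccl6 had an r between -0.03 and 0.04 with each inducible gene and 0.08 with Ccl9. Ccl9 had an r between -0.02 (with Ccl4) and 0.09 (with Cxcl2) with the inducible genes. With the Cxcl genes, the r of Ccl9 was no lower than that of Ccl4, so r does not separate Ccl9 from Ccl4 there. In sparse counts an r this weak carries little.

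Cells with 3 or more inducible genes were compared with cells that had none, to see what else they carried. There were 408 and 367 such cells, with median depths of 4107 and 2600 UMIs, and levels were summed UMIs per 10000 summed UMIs. Genes outside the 8 were counted as past the rule at 2-fold. Of 7762 genes with at least 50 UMIs, 164 (2.11%) were 2-fold or more higher in cells with 3 or more inducible genes, and 156 (2.01%) were 2-fold or more lower. The counting interval of the ratio excluded 1 for 90 and 87 of them. When cells were sorted at equal depth, 119 genes were past the rule higher and 212 lower. The median ratio over all genes was 0.964. Of the 2 members outside the sort, the level of Ccl6 was 94.7 against 93.4 (1.01-fold, 0.988 to 1.04) and that of Ccl9 was 2.03 against 1.54 (1.32-fold, 1.09 to 1.60).

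Of the 10 genes with the largest ratios, 6 are known from inflammatory and early responses. Ereg, a ligand of the EGF receptor, had 147 UMIs against 5 and a level 17.2-fold higher (7.21 to 53.8). Il6, a cytokine of the acute phase, was 12.7-fold higher (6.32 to 30.0), Ccl7, a monocyte chemokine, 11.3-fold (4.23 to 42.4) and Cxcl10, a T cell chemokine, 7.41-fold (3.25 to 20.8). Nfkbiz, a nuclear partner of NF-κB, was 7.59-fold higher (5.23 to 11.4) and Egr1, an immediate-early transcription factor, 7.53-fold (5.96 to 9.64). When cells were sorted at equal depth, these ratios were 18.5 for Ereg, 14.7 for Il6, 4.26 for Ccl7, 12.5 for Cxcl10, 11.8 for Nfkbiz and 11.3 for Egr1. The other 4 of the 10 highest ratios, Pold2, Esco2, Ddx31 and Slc2a1, rest on 1 or 2 UMIs in the cells with none. Among lower genes, Mmp12, a macrophage elastase, had 16 UMIs against 79 and a ratio of 0.119 (0.0646 to 0.205). The other 9 of the 10 lowest, Dbr1, Zfp768, Aldh16a1, Kat2a, Alg9, Cactin, Phka2, Nacc2 and Nsmf, had between 3 and 19 UMIs on either side.

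Lists of chemokines, NF-κB genes and early cytokines held more genes past 2-fold higher than the 2.11% of all genes. Of 9 other chemokines with enough UMIs, 5 were past 2-fold higher and 0 lower, with a median ratio of 2.15. Ccl2, a monocyte chemokine, was at 0.857 against 0.271 (3.16-fold, 2.10 to 4.91), whereas Cxcl14 was at 0.0908 against 0.136 with an interval that holds 1. Of 16 NF-κB genes, 7 were past 2-fold higher and 0 lower. These were the feedback inhibitors Nfkbia (3.71-fold, 3.21 to 4.31), Nfkbid, Tnfaip3 (2.63-fold, 2.10 to 3.31) and Tnip1, with Nfkbiz, Ier3 and the adhesion molecule Icam1 (3.98-fold, 2.04 to 8.67). The subunits Rel (1.45, 1.18 to 1.78), Rela (1.07), Nfkb1 (1.08), Relb (1.24) and Nfkb2 (1.06) were not past the rule. At equal depth Tnip1 was at 1.87 and the chemokine Cxcl9, one of the 5, at 1.66. Of 10 early cytokines, 4 were past 2-fold higher, Il6, Il1a (3.74-fold, 2.62 to 5.47), Il1b (2.52-fold, 2.09 to 3.05) and the receptor Clec4e, while Il18, which AMs carry at a high level, was at 1.06.

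Immediate-early genes moved less evenly. Of 24, 4 were past 2-fold higher, namely Egr1, Gadd45b, Jun and Maff, with a list median of 1.45. Fos was at 9.67 against 6.59 (1.47-fold, 1.34 to 1.61) and Jund at 0.965. Of 9 heat shock genes, 1, Hspa1a, was past the rule at 2.02-fold, with a list median of 1.12. None of 8 listed regulators of transcript decay was past 2-fold in either direction. The highest of them was Zfp36, which encodes tristetraprolin, at 1.86-fold (1.63 to 2.13), or 2.15-fold when cells were sorted at equal depth. Among receptors, the atypical receptor Ccrl2 was past the rule at 2.91-fold (2.05 to 4.24). Ccr1 (1.03) and Tnfrsf1b (0.846) were near 1, and Cxcr2, the receptor of the 3 Cxcl chemokines, had 9 UMIs in all cells. None of 16 AM markers was past 2-fold in either direction, with a list median of 1.02.

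Some other values moved with the same sort. Of 8 cycling genes, 5 were past 2-fold higher, with a summed level of 11.7 against 7.04 UMIs per 10000, and Top2a, a topoisomerase of dividing cells, was 2.67-fold higher. When cells were sorted at equal depth, Birc5 was at 2.04-fold and the other 4 under 2-fold, with Stmn1 at 1.75, Mki67 at 1.70, Top2a at 1.69 and Rrm2 at 1.38. Of 4 MHC class II genes, 1, H2-Eb1, was past 2-fold lower (0.486), with a summed level of 9.39 against 13.4. Of the 3 epithelial genes with enough UMIs, Sftpc was past 2-fold higher at 0.346 against 0.107 UMIs per 10000, or 1.99-fold when sorted at equal depth, and Scgb1a1 was at 1.14-fold. In other lists with genes in the file, summed levels in the 2 sets of cells were 0.426 and 0.553 for neutrophil, 0.131 and 0.0194 for monocyte, 0.0738 and 0.0873 for interstitial macrophage, 0.0170 and 0.145 for dendritic cell, and 0.114 and 0.155 for B and plasma cell genes. The T and NK cell list has 1 gene in the file, Ccl5, which is also a chemokine counted above and was 2.22-fold higher (1.09 to 5.01). The part of depth, cycling and free RNA in the ratios above was not tested beyond these values.

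Likeness to the mean of the 6 inducible genes was then taken over all cells. Among 5937 genes found in at least 5% of cells, the 10 with the highest Pearson's r were Egr1 (0.48), Nfkbiz (0.43), Nfkbia (0.41), Ereg (0.34), Phlda1 (0.32), Il1a (0.30), Tnfaip3 (0.29), Il6 (0.28), Il1b (0.26) and Zfp36 (0.26). The median over genes was 0.00 and the 99th percentile 0.14. Taken singly, Cxcl2 was most like Egr1 (0.44), Nfkbia (0.42) and Nfkbiz (0.39), Tnf most like Egr1 (0.38), Nfkbiz (0.36) and Nfkbia (0.33), and Cxcl1 most like Nfkbiz (0.31), Egr1 (0.30) and Il6 (0.25). Cxcl3 was most like Ereg (0.18), Slc7a11 (0.16) and Il1a (0.15), and Ccl3 most like Egr1 (0.23), Dusp1 (0.18) and H3f3b (0.17). Ccl4 had a different order, led by Ccl2 (0.13), Atf3 (0.12) and H3f3b (0.11). The constitutive genes had other partners. Ccl6 was most like Tmsb10 (0.23), Car4 (0.22) and Cd9 (0.22), and Ccl9 most like Wfdc17 (0.13), Cd63 (0.12) and Wfdc21 (0.11).

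Cycling AMs differed from other AMs in several of the 8 genes. The 84 cells with 3 or more of 6 cycling genes had a median depth of 4515 UMIs, against 3235 in the 1971 other cells. Ccl4 was at 2.86 UMIs per 10000 in cycling cells and 1.01 in the others (2.84-fold, 2.31 to 3.47), and at equal depth 24.4% against 10.9% of cells held it. Ccl3 was at 4.61 against 2.89 (1.59-fold, 1.36 to 1.86). Ccl6 was lower, at 75.7 against 97.0 (0.781, 0.753 to 0.810). Ccl9 was at 2.16 against 1.76, with an interval of the ratio (0.970 to 1.52) that holds 1.

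For Cxcl1, Cxcl2 and Tnf the comparison turned on a few cells. Over all cells, their levels in cycling cells were 3.49-fold (2.79 to 4.33), 1.46-fold (1.35 to 1.57) and 1.84-fold (1.46 to 2.28) those of other cells, and the highest Cxcl1 and Cxcl2 counts of the library, 63 and 202 UMIs, lay in cycling cells. Without the 20 cells that held the most inducible UMIs, 5 of which were cycling, the ratios were 0.882 (0.508 to 1.43), 0.649 (0.570 to 0.737) and 0.516 (0.309 to 0.812). Those of Ccl4 (2.98), Ccl3 (1.57) and Ccl6 (0.792) moved little. The 20 cells were ranked by inducible UMIs, of which Cxcl2 held 65.5%, so their removal says little about Ccl4, Ccl3 and Ccl6. Ccl4 in cycling cells also rested on few cells. The 5 cycling cells with the most Ccl4 held 54.4% of its UMIs there, and a cycling cell held the highest Ccl4 count of the library, 23 UMIs. Cxcl3 had 4 UMIs in cycling cells and a ratio of 0.258 (0.0699 to 0.669).

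**Figure D5:**
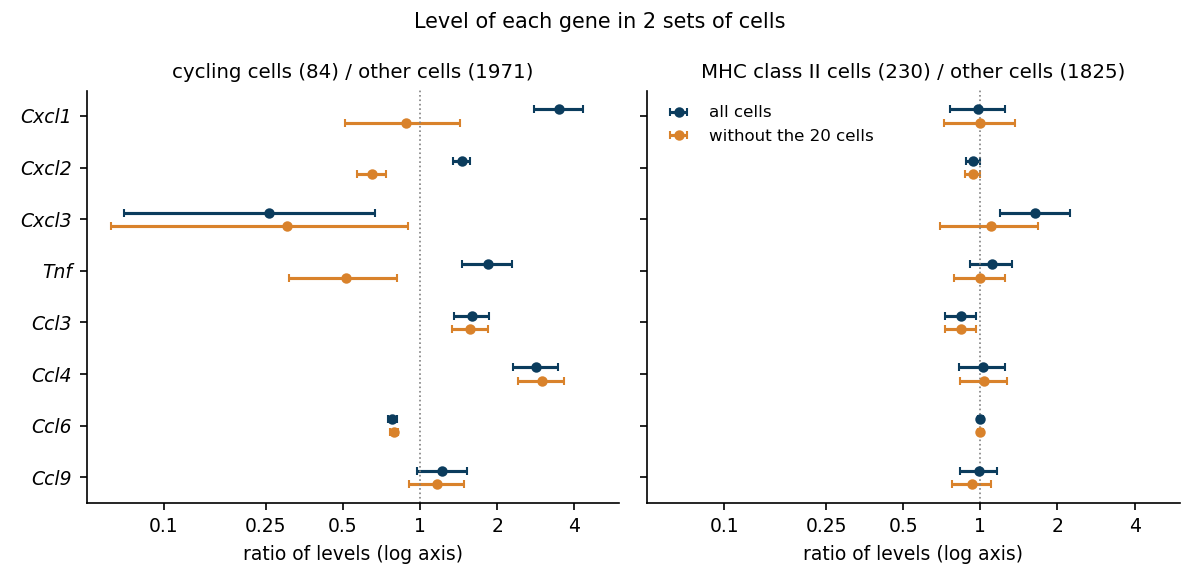
Ratio of the level of each gene (horizontal log axis, with exact counting intervals) in 84 cycling cells over 1971 others (left) and in 230 cells with MHC class II transcripts over 1825 others (right), for all cells (dark) and without the 20 cells with the most inducible UMIs (orange). Ccl4, Ccl3 and Ccl6 keep their place in cycling cells, whereas Cxcl1, Cxcl2 and Tnf pass from above 1 to below it. The choice of the 20 cells rests mostly on Cxcl2, which held 65.5% of inducible UMIs.

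The 230 cells with 3 or more of 4 MHC class II genes, which present antigen to T cells, were near other AMs in most of the 8 genes. Ccl6 was at 95.7 against 95.8 UMIs per 10000, Ccl4 at 1.13 against 1.11 and Cxcl1 at 0.809 against 0.828. Ccl3 was at 2.56 against 3.05, a ratio of 0.837 (0.729 to 0.958). Cxcl3 was at 0.564 against 0.344, a ratio of 1.64 (1.19 to 2.23), which was 1.10 (0.699 to 1.68) without the 20 cells and 0.515 (0.276 to 0.887) among cells with at most 5% mitochondrial UMIs. The cell with the most Cxcl3, 27 UMIs, is in this set and is over that mitochondrial limit.

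Cells with more mitochondrial UMIs had less Ccl3 and Ccl4. The share was taken over the genes in the file, from which the authors had removed ribosomal protein genes. The paper had left out cells with over 5% mitochondrial content by its own count, so the cells over 5% here had passed that filter. In the 384 cells with over 5% of their UMIs on mitochondrial genes (median depth 2684 against 3403), Ccl4 was at 0.535 UMIs per 10000 against 1.22 (0.439, 0.333 to 0.569), with at most 4 UMIs in a cell. Ccl3 was at 2.02 against 3.17 (0.636, 0.553 to 0.729). At equal depth, 9.59% against 11.9% of cells held Ccl4, a smaller gap than in its level, and 24.0% against 32.2% held Ccl3. Ccl6 was at 95.1 against 95.9 (0.991, 0.971 to 1.01). For Cxcl2 the level was 11.0 against 12.8 (0.862, 0.812 to 0.915), and without the 20 cells the interval of its ratio (0.884 to 1.01) held 1. Cxcl1 was at 0.647 against 0.859 (0.753, 0.583 to 0.961) and Cxcl3 at 0.613 against 0.327 (1.88, 1.41 to 2.47), and without the 20 cells both intervals held 1, at 1.06 (0.798 to 1.40) and 1.17 (0.785 to 1.71). Tnf was at 1.13 against 1.33 (0.850, 0.701 to 1.02) and 0.744 (0.587 to 0.933) without the 20 cells, and Ccl9 at 1.62 against 1.82 (0.893, 0.761 to 1.04) and 0.838 (0.709 to 0.985).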

How the data were processed

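The authors counted UMIs with Cell Ranger on mm10 and filtered cells and genes. With Seurat they divided the UMIs by the total of each cell, multiplied by 10000, added 1 and deposited the result as a natural log. A scaled score, in which UMIs and mitochondrial content had been regressed out, was deposited too. They left out cells with very many genes as likely doublets, and no doublet caller was run here. UMIs were recovered from the steps of the natural log values (100% of 3052476 values above 0 came out whole within 0.01 UMI), and the script was tested on simulated data. The scores were used for 1 alternative only. Shares have 95% Wilson intervals, summed UMIs and their ratios exact ones. A fold against cells with 0 UMIs was computed against a floor of 3. Cycling and MHC class II cells had UMIs of 3 or more listed genes. Named were the 8 genes, the 10 genes with the largest ratio in each direction past 2-fold, list members with large ratios, the 10 genes most like the inducible mean and 3 for each member. The genes and lists were chosen with earlier results of these data known. Alternatives were thinning to 2000 UMIs, at least 2 UMIs, at most 5% mitochondrial UMIs, leaving out 20 cells, another rank or fold, and for cell sets an alternative chosen after seeing the data. Python 3.11.15, numpy 2.4.6, scipy 1.17.1, pandas 2.3.3 and matplotlib 3.10.9 were used. A listed receptor gene is not reported here.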

Additional observations from a re-analysis of the deposited data

How the results depend on the processing

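No paired analysis was possible because there is 1 library. No value between mice can be had, and at this depth a cell without a UMI may still carry the transcript. At 2000 UMIs per cell, 11.3% of cells held 3 or more inducible genes in place of 19.9%, and the top 5% of cells held 41.9% of inducible UMIs in place of 44.8% (42.8% when cells were ranked by UMIs per 10000). Requiring at least 2 UMIs gave 6.81% of cells and a median joint detection ratio of 2.24 over inducible pairs in place of 1.29. Against 164 genes higher and 156 lower, a fold of 1.5 gave 503 and 700, genes of at least 20 UMIs gave 388 and 394, and comparison with all other cells gave 48 and 72. The other 22 of 33 alternatives to these summary values stayed within the counting interval or 1.5 times the main count. Of the ratios in cell sets whose interval excluded 1, with alternatives added after the data were seen, 5 changed direction. Without the 20 cells, Cxcl1 gave 0.882, Cxcl2 0.649 and Tnf 0.516 in cycling cells and Cxcl1 1.06 in cells with over 5% mitochondrial UMIs. In MHC class II cells with at most 5% mitochondrial UMIs, Cxcl3 gave 0.515, and there the cause was not tested. The 20 cells had been chosen for their UMIs of the inducible genes, so leaving them out lowers these genes by construction.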
